A study of Homo sapiens and Mus musculus with 22 samples.

Results

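Axon guidance ligands and receptors were followed through small cell lung cancer (SCLC) lines with high or low MHC class I, which shows peptides to cytotoxic T cells at the cell surface. Members were all gene symbols that start as the Eph receptors, ephrins, semaphorins of classes 3 to 7, plexins, UNC5 receptors or netrins do, together with NRP1, NRP2, ROBO1 to ROBO4, SLIT1 to SLIT3 and DCC, with at least 10 counts in at least 2 libraries of a table. One Eph receptor gene was left out by the rule. There were 70 members among 25435 genes for H69 and H69M, 68 among 20113 for H69EZ and 62 among 24047 for the mouse lines. Of these, 4, 2 and 2 were taken to be no guidance proteins, namely UNC50, UNC5CL and, in the first table, the antisense genes EPHA5-AS1 and UNC5B-AS1. They were kept in the counts and are not described further, apart from UNC50.

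The 22 libraries fell into 8 groups. H69M is an MHC class I high line derived from NCI-H69, and it was sequenced unsorted and as fractions sorted high and low for PD-L1, the checkpoint ligand encoded by CD274. Per the labels the PD-L1 high fraction is MHC class I high and the PD-L1 low fraction MHC class I low or negative. NCI-H69 (H69), the human SCLC line from which all the human groups descend, is labelled MHC class I low or negative. H69EZ came from H69 through 6 days of an EZH2 inhibitor, then growth without it and selection of adherent cells, and it was sequenced as fractions sorted into HLA high and HLA low cells. RPP-A, the MHC class I high mouse line, was obtained by adherent growth from RPP, a mouse SCLC line of low MHC class I. There were 3 libraries in each group except the HLA high and HLA low fractions, which had 2 each. H69M, H69EZ and RPP-A are each a single derived line, so a difference from the parent is that of this one derivative. Levels are in CPM, counts scaled to a common depth by library totals with TMM factors, and they are compared between libraries of 1 table and not between genes. The labels do not say that libraries of a group came from separate cultures, so p-values measure the spread between these libraries only, which may be technical.

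Axon guidance genes encode cues and receptors that steer growing axons and also act on cell adhesion, migration and vessel growth. Ephrins are membrane-bound ligands of the Eph receptor tyrosine kinases. Semaphorins act on plexins, those of class 3 mostly through the neuropilins. Slits act on Robo receptors, and netrins act on DCC and on the UNC5 receptors, which mediate repulsion and can induce cell death when their ligand is lacking. SCLC cells are typically neuroendocrine and share much of their expression with neurons, whereas non-neuroendocrine SCLC cells are adherent and mesenchymal-like.

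Total counts per library ran from 10817795 to 52458228. CD274 averaged 13.3 ± 0.424 CPM in the PD-L1 high fraction, against 0.265 ± 0.152 CPM in the PD-L1 low fraction. B2M, the light chain of MHC class I, averaged 802 ± 44.4 CPM in HLA high cells, against 155 ± 0.512 CPM in HLA low cells, and B2m 2071 ± 468 CPM in RPP-A, against 68.3 ± 4.30 CPM in RPP, which goes with the labels (SD, n = 2 in each H69EZ fraction and 3 elsewhere, for all means below). Cd274 went the other way in the mouse lines, at 4.96 ± 1.07 CPM in RPP-A, against 31.5 ± 0.843 CPM in RPP. Summed markers of cell types and of SCLC cell states differed between the fractions of both sorts and between the mouse lines. The summed level of 10 fibroblast markers was 11210 to 11503 CPM in the PD-L1 high fraction, 269.9 to 367 CPM in the PD-L1 low fraction, 2521 to 2811 CPM in H69M and 156 CPM in the lowest and the highest library of H69. It was 16384 and 17816 CPM in HLA high cells, against 109 and 113 CPM in HLA low cells, and 23073 to 30852 CPM in RPP-A, against 88.3 to 461 CPM in RPP. Of these markers TCF21 was at 0 in H69M, H69 and both H69EZ fractions. Non-neuroendocrine SCLC markers summed to 4696 to 4784 CPM in the PD-L1 high fraction and 211 to 247 CPM in the PD-L1 low fraction. In H69M this sum was 1385 to 1450 CPM, and in H69 276 to 333 CPM. It was 4037 and 4143 CPM in HLA high cells, against 300 and 311 CPM in HLA low cells. In RPP-A it was 5528 to 5820 CPM, against 69.4 to 290.5 CPM in RPP. The summed neuroendocrine markers were at 1351 to 1409 CPM in the PD-L1 high fraction, 4859 to 5115 CPM in the PD-L1 low fraction, 3465 to 3604 CPM in H69M and 3599 to 3900.3 CPM in H69. They were at 636 and 657 CPM in HLA high cells, against 2329 and 2376 CPM in HLA low cells, and at 155 to 203 CPM in RPP-A, against 3432 to 4355 CPM in RPP. Neuron markers summed to 1019 to 1081 CPM in the PD-L1 high fraction and 2028 to 2088 CPM in the PD-L1 low fraction. In H69M this sum was 1607 to 1659 CPM, and in H69 1637 to 1676 CPM. It was 532 and 546 CPM in HLA high cells, against 1051 and 1068 CPM in HLA low cells. In RPP-A it was 360 to 385 CPM, against 805 to 882 CPM in RPP. Leukocyte markers summed to 10.7 to 11.5 CPM in the PD-L1 high fraction and 2.05 to 2.57 CPM in the PD-L1 low fraction. In H69M their sum was 4.86 to 4.99 CPM, and in H69 3.47 to 4.23 CPM. HLA high cells had 7.06 and 7.95 CPM, against 4.90 and 5.42 CPM in HLA low cells. RPP-A had 34.96 to 38.8 CPM, against 2.20 to 3.09 CPM in RPP. Of these markers CD3E and CD3D were at 0 throughout. In these bulk samples fewer cells of a type and less RNA per cell cannot be told apart, and the part of these markers in the results below was not tested. Between RPPM1 and RPPM2, columns of RPP-A, the chi-square per degree of freedom was 1.33, and it was 2.22 to 37.2 for the other replicate pairs. RPPM1 and RPPM2 thus differed by little more than counting error, and whether they are independent libraries was not tested. The RPP column EHK_RPP4 stood apart from the other RPP libraries and the RPP-A column RPPM3 from the other RPP-A libraries.

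Most members differed in each comparison, in both directions, as most genes did. By edgeR's quasi-likelihood test with Benjamini-Hochberg adjustment over all genes at 0.05, 88.4% of the 69 tested members differed between the PD-L1 fractions of H69M, against 78.3% of all 15445 genes tested. PD-L1 high cells had 32 members higher, against 39% of all genes, and 29 lower, against 39.4%. At least 2-fold changes were seen in 20 higher and 19 lower members, against 33.3% of all genes in either direction. In the HLA sort of H69EZ 89.7% of 68 members differed, against 81.3% of 14819 genes, with 42 higher, against 41.1% of all genes, and 19 lower, against 40.2%. There 28 higher and 13 lower members changed at least 2-fold, against 34.3% of all genes. In RPP-A against RPP 85.5% of 62 members differed, against 78.2% of 14032 genes, with 24 higher, against 37.6% of all genes, and 29 lower, against 40.6%. The 2-fold changes numbered 20 and 27, against 50% of all genes.

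The H69M groups also differed from H69 in most members. In H69M against H69 84.1% of the members differed, against 72.5% of all genes, with 38 higher, against 35.9%, and 20 lower, against 36.6%. At least 2-fold changes were seen in 21 higher and 8 lower members, against 23.8% of all genes. Of the PD-L1 low fraction against H69 the members' share was 84.1%, against 75.9% of all genes, with 38 higher, against 39%, 20 lower, against 36.9%, and 23 and 6 past 2-fold, against 25.5%. Of the PD-L1 high fraction against H69 it was 91.3%, against 77.6%, with 37 higher, against 38.1%, 26 lower, against 39.5%, and 32 and 10 past 2-fold, against 32.3%. The comparisons with H69 share the H69 libraries. The median size of the log2 fold change, taken without its sign, was 1.18 over the members and 0.59 over all genes in the PD-L1 sort, 1.25 and 0.63 in the HLA sort, 2.51 and 1.01 in the mouse lines, and 0.82 and 0.43 in H69M against H69. Since most genes were called in each comparison, a call by itself does not set a member apart, and no test of the shares or of these medians was made. Summed over genes, the members held 0.341% and 0.339% of all counts in HLA high cells, against 0.228% and 0.229% in HLA low cells, 0.357% to 0.363% in PD-L1 high cells, against 0.374% to 0.382% in PD-L1 low cells, and 0.296% to 0.352% in RPP-A, against 0.289% to 0.313% in RPP.

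**Figure D1:**
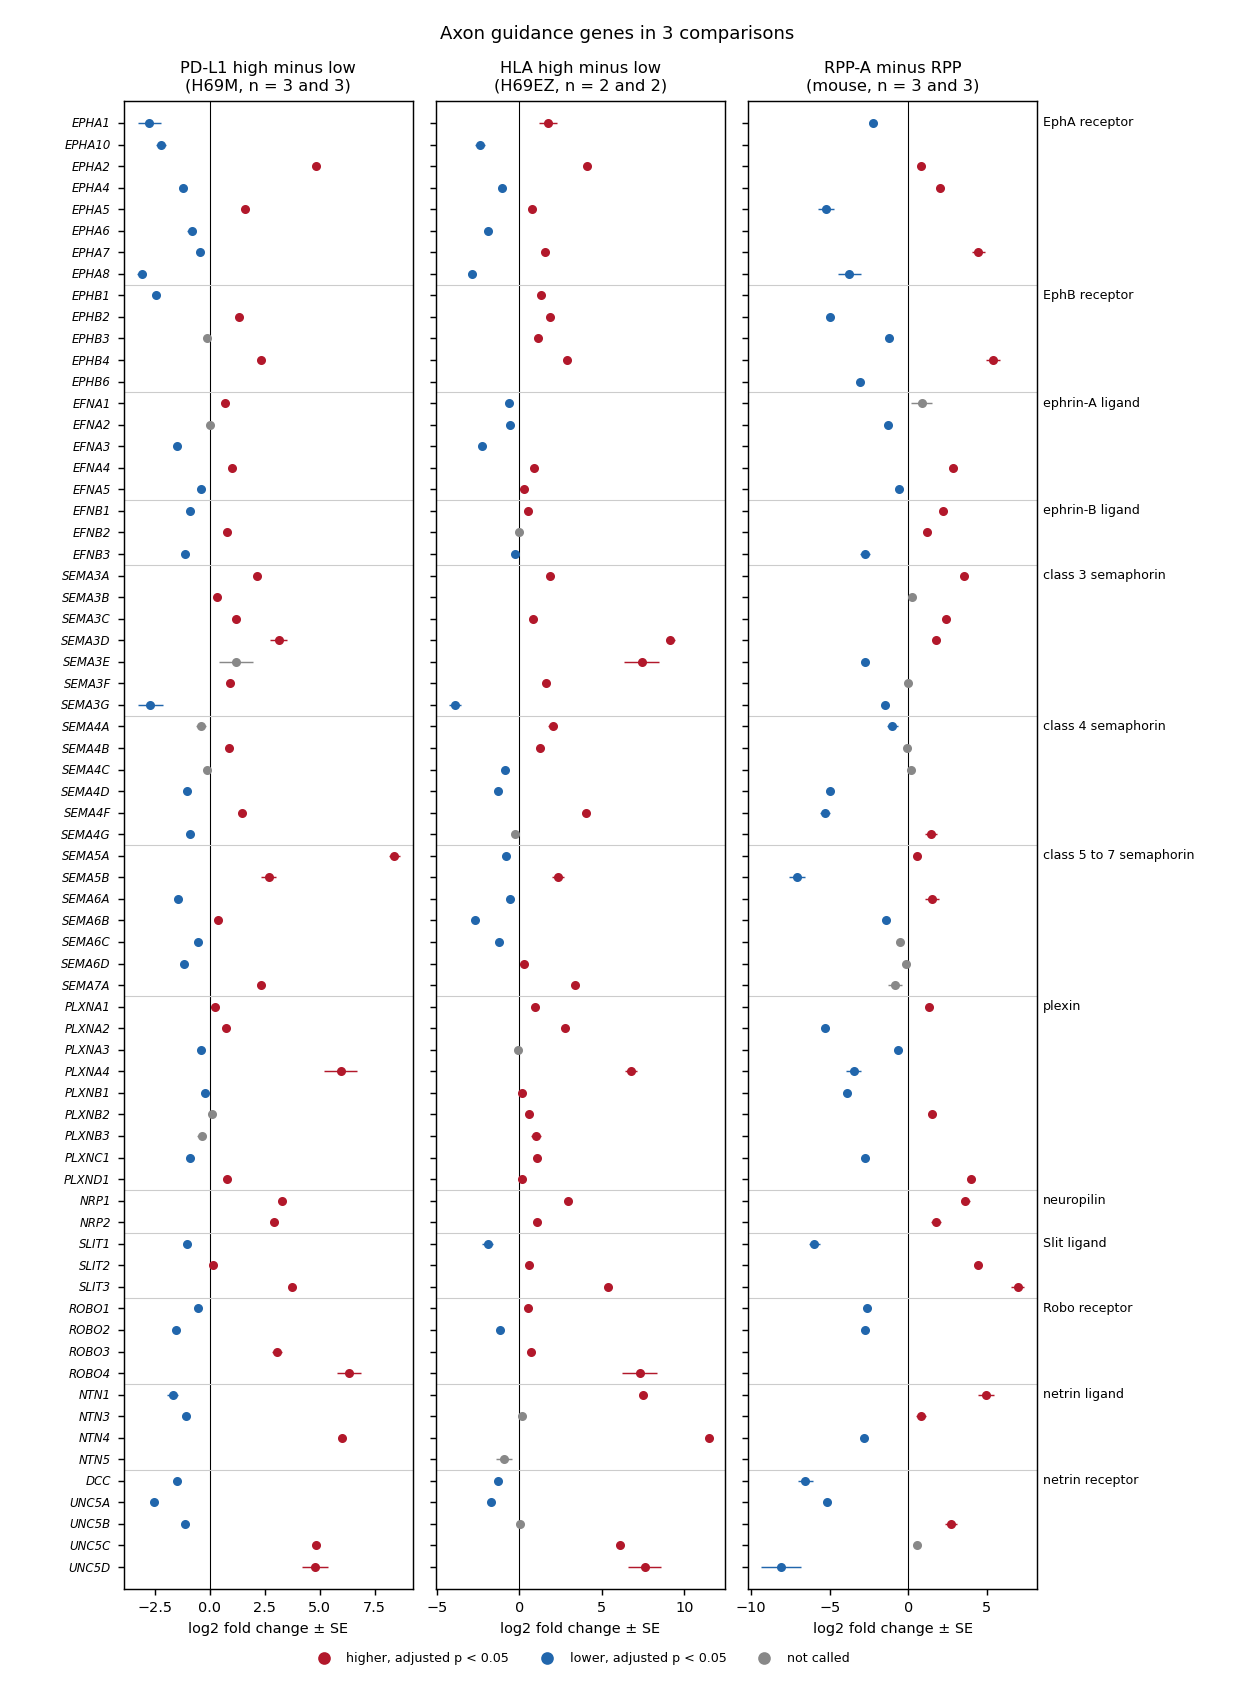
Log2 fold change ± SE of each guidance gene tested, by role, for PD-L1 high minus PD-L1 low, HLA high minus HLA low and RPP-A minus RPP (mouse genes under the human symbol). Red points were called higher, blue points lower and grey points not called, and the rows with a value in 1 column only were tested in 1 table only. Fitted values of genes with few counts in a group depend on the prior count of the fit. NTN4 stands at 11.49 in the HLA sort and at -2.82 in the mouse lines.

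The calls of both human sorts and of the mouse lines were set side by side. Of 67 members tested in both human sorts, 27 were higher in the high fraction of both, 14 were lower in both and 13 were called in opposite directions. These are 40.3%, 20.9% and 19.4% of the members, where 28.2%, 25.5% and 13.7% of all 13621 genes tested in both sorts had such calls. Of 60 members tested in all 3 tables, 13 (21.7%) were higher and 8 (13.3%) were lower in PD-L1 high cells, HLA high cells and RPP-A, against 16.9% and 14.6% of 11213 genes matched by symbol. No test of these shares was made, and since most genes were called in each comparison, shared calls do not set the members apart. The 13 higher ones were EPHA2, EPHB4, EFNA4, NRP1, NRP2, PLXNA1, PLXND1, SEMA3A, SEMA3C, SEMA3D, SLIT2, SLIT3 and UNC50. The 8 lower ones were DCC, UNC5A, EPHA8, EFNB3, ROBO2, SLIT1, SEMA3G and SEMA4D. UNC50, an inner nuclear membrane protein, was at 22.5 to 23.1 CPM in PD-L1 high cells, against 14.4 to 16.4 CPM in PD-L1 low cells, at 15.8 and 15.9 CPM in HLA high cells, against 12.4 CPM in both HLA low libraries, and at 35.4 to 36.4 CPM in RPP-A, against 21.3 to 25.8 CPM in RPP. When libraries were scaled by their totals without TMM, EPHA2 and UNC50 were no longer called in the mouse lines, PLXNA1 and SLIT2 in the PD-L1 sort or PLXND1 in the HLA sort, with SLIT2 and PLXND1 at -0.01 on the log2 scale in those sorts. Library totals moved the median log2 fold change of all genes to -0.15 in the HLA sort, -0.14 in the PD-L1 sort and -0.41 in the mouse lines, and to 0.12 in the PD-L1 low fraction against H69. With them 35.2% of the genes called in the mouse lines were higher and 64.8% lower, against 48.1% and 51.9% with TMM.

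**Figure D2:**
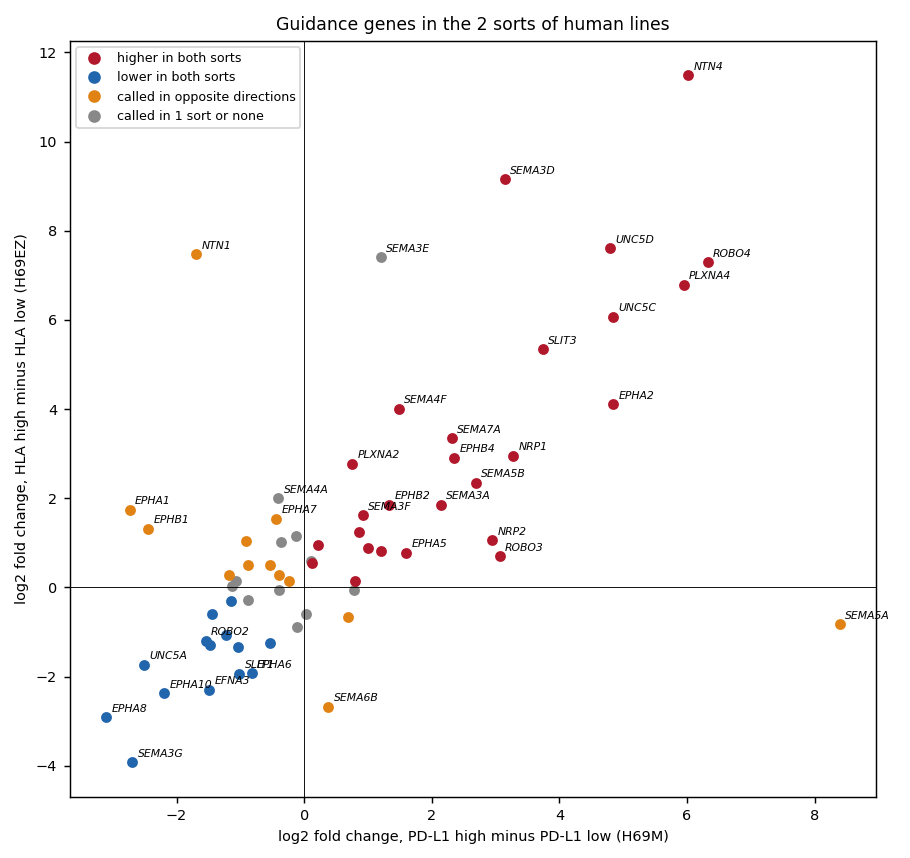
Log2 fold change of each guidance gene in the PD-L1 sort of H69M (horizontal axis) and in the HLA sort of H69EZ (vertical axis), coloured by the calls in both. Genes past 1.5 in either sort are named. SEMA5A lies at 8.39 and -0.83, NTN1 at -1.69 and 7.48, and NTN4 at 6.01 and 11.49.

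Promoters were looked at for members that moved together in the human sorts. Of the 71 human members 61 had at least 1 promoter in the RefSeq table of build GRCh38.p14, 93 in all, each 300 bases long. NRP1 and NTN1 had no entry. The files themselves use hg19. The first 3 promoters below belong to genes that were higher in PD-L1 high and HLA high cells and in RPP-A, and the last 2 to genes that were lower in all of them, picked after their values were seen. They are written 5′ to 3′ along the gene, and capitals mark matches on either strand to TGANTCA (AP-1), CATTCC (TEAD), TGACGTCA (CRE) and GGGCGG (GC box).
EPHA2 (chr1:16156020-16156319, minus strand): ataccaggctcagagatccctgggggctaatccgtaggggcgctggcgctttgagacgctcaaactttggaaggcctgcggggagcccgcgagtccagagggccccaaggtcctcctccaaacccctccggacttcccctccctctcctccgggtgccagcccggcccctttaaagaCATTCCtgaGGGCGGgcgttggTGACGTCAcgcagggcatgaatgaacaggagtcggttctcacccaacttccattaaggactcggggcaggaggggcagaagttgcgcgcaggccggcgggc
EPHB4 (chr7:100827474-100827773, minus strand): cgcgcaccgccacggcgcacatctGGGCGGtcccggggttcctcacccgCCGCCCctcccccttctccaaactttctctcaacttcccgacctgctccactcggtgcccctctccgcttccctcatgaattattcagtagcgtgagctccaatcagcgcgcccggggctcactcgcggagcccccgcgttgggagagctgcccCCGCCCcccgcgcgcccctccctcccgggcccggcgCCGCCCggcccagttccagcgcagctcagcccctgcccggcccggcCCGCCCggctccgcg
SLIT3 (chr5:169301090-169301389, minus strand): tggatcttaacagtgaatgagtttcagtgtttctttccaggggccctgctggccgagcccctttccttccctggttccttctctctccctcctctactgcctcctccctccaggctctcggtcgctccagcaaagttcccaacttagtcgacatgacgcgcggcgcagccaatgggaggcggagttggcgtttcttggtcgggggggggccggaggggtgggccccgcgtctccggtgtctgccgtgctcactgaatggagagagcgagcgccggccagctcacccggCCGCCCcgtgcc
UNC5A (chr5:176810309-176810608, plus strand): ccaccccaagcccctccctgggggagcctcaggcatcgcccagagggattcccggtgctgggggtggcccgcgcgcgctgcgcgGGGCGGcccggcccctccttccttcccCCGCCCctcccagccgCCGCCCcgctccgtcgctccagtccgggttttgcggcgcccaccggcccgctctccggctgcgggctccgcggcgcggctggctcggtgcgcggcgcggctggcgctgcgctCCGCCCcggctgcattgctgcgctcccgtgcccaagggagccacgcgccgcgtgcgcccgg
EPHA8 (chr1:22563239-22563538, plus strand): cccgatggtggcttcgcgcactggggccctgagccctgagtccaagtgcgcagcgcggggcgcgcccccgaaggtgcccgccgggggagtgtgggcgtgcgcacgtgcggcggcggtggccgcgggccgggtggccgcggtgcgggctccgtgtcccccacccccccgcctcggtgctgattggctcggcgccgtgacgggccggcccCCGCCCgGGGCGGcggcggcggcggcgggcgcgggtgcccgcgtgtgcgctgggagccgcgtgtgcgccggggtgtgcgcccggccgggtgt
The promoter of EPHA2 held 1 TEAD, 1 CRE and 1 GC box match in a short stretch, and that of EPHB4 held 5 GC box matches. SLIT3 had 1 GC box match, UNC5A 4 and EPHA8 2. None of these promoters held an AP-1 match. Over all member promoters the AP-1 letters were in 2.15%, against 7.71% of all 35116 promoters, the TEAD letters in 10.8%, against 14%, the CRE letters in 3.23%, against 1.85%, and the GC box in 72%, against 45%. The median number of CpG dinucleotides was 22 in member promoters and 14 in all promoters. A match describes the letters of the window only.

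Ephrin-A ligands, which are held to the membrane by a GPI anchor, moved in different directions. EFNA4 was at 9.94, 8.87 and 9.14 CPM in PD-L1 high cells, 4.74, 4.88 and 4.27 CPM in PD-L1 low cells, 7.24, 6.22 and 7.77 CPM in H69M and 1.49, 1.13 and 2.02 CPM in H69. It was at 6.75 and 6.41 CPM in HLA high cells, against 3.72 and 3.39 CPM in HLA low cells. No library of a high fraction overlapped those of its low fraction, and the log2 fold changes were 1.00 ± 0.13 (adjusted p = 6.84e-07) and 0.89 ± 0.13 (adjusted p = 4.78e-12). EFNA3 fell in both sorts, to 10.96, 11.9 and 11.96 CPM in PD-L1 high cells, against 36.1, 30.2 and 31.2 CPM in PD-L1 low cells, and to 7.41 and 6.33 CPM in HLA high cells, against 34.2 and 33.5 CPM in HLA low cells. Its log2 fold changes were -1.49 ± 0.09 and -2.29 ± 0.09, and H69M, at 18.8 to 20.3 CPM, lay above H69, at 9.63 to 11.5 CPM. EFNA2 was at 7.78 to 9.71 CPM in PD-L1 high cells, 7.96 to 9.31 CPM in PD-L1 low cells, 7.88 to 9.60 CPM in H69M and 1.53 to 2.41 CPM in H69. All H69M groups lay above H69, and no difference between the fractions was called (adjusted p = 0.827).

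Ephrin-B ligands span the membrane and can signal back into their own cell. EFNB3 was at 22.6 to 23.9 CPM in PD-L1 high cells, 47.8 to 55.6 CPM in PD-L1 low cells, 43.6 to 47.5 CPM in H69M and 22.9 to 28.01 CPM in H69. HLA high cells were at 24.7 and 20.98 CPM, against 28.98 and 27.2 CPM in HLA low cells. Both high fractions were below their low fractions without overlap, with log2 fold changes of -1.14 ± 0.08 and -0.30 ± 0.08. The HLA sort call was lost without HLA low library 1 (-0.25, adjusted p = 0.0651). EFNB2, the ligand of EPHB4, was at 138, 134 and 142 CPM in PD-L1 high cells, against 81.8, 77.9 and 81.7 CPM in PD-L1 low cells, with a log2 fold change of 0.78 ± 0.05 (adjusted p = 3.97e-11), and it was at 54.6 and 56.01 CPM in HLA high and 56.3 and 58.9 CPM in HLA low cells, with no call (adjusted p = 0.438).

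Among the Eph receptors, EPHA2 and EPHB4 were well above the low fraction in both high fractions. EPHA2, an EphA receptor of epithelial and many tumour cells, was at 122, 124 and 121 CPM in PD-L1 high cells, 4.61, 3.67 and 4.63 CPM in PD-L1 low cells, 43.4, 43.2 and 46.1 CPM in H69M and 1.09, 0.718 and 0.726 CPM in H69. The 4 groups did not overlap, with unsorted H69M between its fractions. The log2 fold change was 4.84 ± 0.08 between the fractions (adjusted p = 3.15e-20), 5.67 ± 0.12 in H69M against H69 (adjusted p = 6.78e-19) and 2.30 ± 0.17 in PD-L1 low cells against H69 (adjusted p = 2.75e-10). In H69EZ it was at 236 and 217 CPM in HLA high cells, against 13.5 and 12.7 CPM in HLA low cells, a log2 fold change of 4.11 ± 0.08. EPHB4, the receptor of ephrin-B2 known from arteries and veins, was at 136, 137 and 129.99 CPM in PD-L1 high cells, 27.03, 23.7 and 28.8 CPM in PD-L1 low cells, 57.6, 64.4 and 64.5 CPM in H69M and 5.63, 4.57 and 4.60 CPM in H69. The groups followed the order of EPHA2, with log2 fold changes of 2.35 ± 0.07 in the sort (adjusted p = 9.49e-17) and 3.64 ± 0.09 in H69M against H69 (adjusted p = 1.04e-17). HLA high cells had 175 and 157 CPM of EPHB4, against 22.8 and 21.4 CPM in HLA low cells, a log2 fold change of 2.91 ± 0.07. EPHB2 also rose in both sorts, to 75.1 to 85.04 CPM in PD-L1 high cells, against 28.5 to 33.99 CPM in PD-L1 low cells, and to 67.8 and 63.5 CPM in HLA high cells, against 17.5 and 18.9 CPM in HLA low cells. Its log2 fold changes were 1.33 ± 0.07 and 1.85 ± 0.08. EPHA5 rose by 1.60 ± 0.07 and 0.78 ± 0.07. EPHA5 has the antisense gene EPHA5-AS1, and the use of strand in counting is not given in the sources used here.

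Other Eph receptors fell in the high fractions. EPHA8, a receptor of ephrin-A ligands, was at 1.27, 0.641 and 1.34 CPM in PD-L1 high cells, 10.4, 7.54 and 9.84 CPM in PD-L1 low cells, 2.20, 3.58 and 2.49 CPM in H69M and 12.4, 11.6 and 10.5 CPM in H69. The H69EZ level was 0.721 and 0.443 CPM in HLA high cells, against 4.72 and 4.29 CPM in HLA low cells. Neither pair of fractions overlapped, and its log2 fold changes were -3.10 ± 0.22 (adjusted p = 7.24e-11) and -2.91 ± 0.20 (adjusted p = 2.37e-47). EPHA4, which binds ligands of both ephrin classes, was at 52.1 to 55.5 CPM in PD-L1 high cells, against 124 to 129 CPM in PD-L1 low cells, and at 24.3 and 25.7 CPM in HLA high cells, against 52.02 and 52.3 CPM in HLA low cells. It fell by 1.23 and 1.06 on the log2 scale. EPHA6 was at 1.54 and 1.95 CPM in HLA high and 6.64 and 6.45 CPM in HLA low cells, a log2 fold change of -1.92 ± 0.15, against -0.83 ± 0.20 in the PD-L1 sort. EPHA10, a receptor without kinase activity, fell in both sorts (-2.20 ± 0.22 and -2.38 ± 0.29), at no more than 3.86 CPM in any library. EPHB1 fell in PD-L1 high cells, to 5.77 to 6.36 CPM, against 31.7 to 33.1 CPM in PD-L1 low cells, and rose in HLA high cells, to 7.95 and 9.46 CPM, against 3.64 and 3.29 CPM in HLA low cells. EPHB3 was at 22.1 to 24.9 CPM in PD-L1 high cells, 24.4 to 28.2 CPM in PD-L1 low cells, 21.5 to 24.7 CPM in H69M and 5.65 to 7.002 CPM in H69. It was above H69 in all H69M groups and rose in HLA high cells by 1.15 ± 0.09, to 28.7 and 25.3 CPM, against 12.1 and 12.3 CPM in HLA low cells. Of 8 EphA receptors 2 were higher and 6 lower in PD-L1 high cells and 4 were higher and 4 lower in HLA high cells. Of 4 EphB receptors 2 were higher, 1 lower and 1 not called in PD-L1 high cells, and all 4 were higher in HLA high cells. Among all genes 39% were higher and 39.4% lower in PD-L1 high cells, and 41.1% and 40.2% in HLA high cells.

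Of the class 3 semaphorins, secreted cues that are mostly repellent, 5 of 7 were higher and 1 was lower in PD-L1 high cells, against 39% and 39.4% of all genes. In HLA high cells 5 of 6 were higher and 1 was lower, against 41.1% and 40.2% of all genes. SEMA3A, the class's best known repellent of axons, was at 97.2, 96.1 and 92.9 CPM in PD-L1 high cells, 20.03, 23.9 and 20.8 CPM in PD-L1 low cells, 48.4, 45.2 and 48.2 CPM in H69M and 26.5, 27.4 and 27.5 CPM in H69. It was at 80.4 and 88.2 CPM in HLA high cells, against 23.4 and 23.1 CPM in HLA low cells. PD-L1 high cells lay above all other groups and PD-L1 low cells below them, with log2 fold changes of 2.14 ± 0.07 in the PD-L1 sort (adjusted p = 7.59e-17) and 1.86 ± 0.07 in the HLA sort (adjusted p = 1.14e-133). SEMA3C was at 209, 191 and 206 CPM in PD-L1 high cells, against 85.4, 96.1 and 80.5 CPM in PD-L1 low cells, and at 452 and 512 CPM in HLA high cells, against 274 and 275 CPM in HLA low cells, rising by 1.21 ± 0.07 and 0.81 ± 0.06. SEMA3F, which acts through NRP2, was at 67.9, 69.8 and 71.96 CPM in PD-L1 high cells, 38.9, 34.4 and 37.5 CPM in PD-L1 low cells, 24.9, 28.96 and 28.5 CPM in H69M and 8.53, 8.61 and 9.60 CPM in H69. These 4 groups did not overlap, and H69M lay below both of its fractions. In the HLA sort SEMA3F rose by 1.62 ± 0.08. SEMA3B was at 6.999 to 7.25 CPM in PD-L1 high cells, 4.65 to 6.44 CPM in PD-L1 low cells and 1.78 to 2.54 CPM in H69. It rose in PD-L1 low cells against H69 by 1.39 ± 0.16, and its call in the PD-L1 sort (0.34) was lost with library totals (0.20, adjusted p = 0.176) and without PD-L1 low library 1 (0.16, adjusted p = 0.287) or any of the PD-L1 high libraries.

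The other class 3 genes had low levels in at least one fraction. SEMA3D was at 11.9 and 15.7 CPM in HLA high cells, against 0 and 0.0464 CPM in HLA low cells, with 2 counts in HLA low cells, a ratio of 634, with a 95% counting interval of 175 to 5245. Its fitted log2 fold change of 9.15 became 12.31 without HLA low library 2. In the H69M table SEMA3D was at 1.76, 1.23 and 1.76 CPM in PD-L1 high cells, 0.222, 0.0465 and 0.289 CPM in PD-L1 low cells, 0.315, 0.199 and 0.306 CPM in H69M and 2.33, 3.17 and 2.74 CPM in H69, so that it rose in the sort by 3.14 ± 0.39 (adjusted p = 4.05e-07) and was below H69 in all 3 H69M groups. SEMA3G was at 0.0703 to 0.107 CPM in PD-L1 high cells, against 0.579 to 0.665 CPM in PD-L1 low cells, and at 0.140 and 0.0782 CPM in HLA high cells, against 1.80 and 1.69 CPM in HLA low cells. It fell in both, by 2.69 and 3.92, at levels under 2 CPM. SEMA3E, which binds PLXND1 directly, had no count in HLA low cells and 0.521 and 0.391 CPM in HLA high cells, at least 14.5-fold higher against a floor of 3 counts over the HLA low group. Such floors and the counting intervals cover counting error only.

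Both neuropilins, coreceptors of class 3 semaphorins and of VEGF, rose in the high fractions. NRP1 was at 177, 171 and 161 CPM in PD-L1 high cells, 15.3, 17.4 and 20.3 CPM in PD-L1 low cells, 44.2, 49.96 and 47.4 CPM in H69M and 17.99, 18.7 and 22.2 CPM in H69. PD-L1 low cells overlapped H69 (adjusted p = 0.178), whereas PD-L1 high cells lay above every other library, by 3.28 ± 0.09 against PD-L1 low cells (adjusted p = 6.65e-18). HLA high cells had 156 and 161 CPM of NRP1, against 20.9 and 20.1 CPM in HLA low cells, a log2 fold change of 2.95 ± 0.07. NRP2 was at 149.9, 153 and 151 CPM in PD-L1 high cells, 19.99, 17.1 and 22.7 CPM in PD-L1 low cells, 53.5, 52.7 and 49.5 CPM in H69M and 49.4, 49.02 and 56.01 CPM in H69. In H69EZ it was at 163 and 162 CPM in HLA high cells, against 77.8 and 77.6 CPM in HLA low cells. It rose by 2.94 ± 0.08 in the PD-L1 sort (adjusted p = 8.22e-18) and by 1.06 ± 0.07 in the HLA sort (adjusted p = 5.43e-58). Unsorted H69M overlapped H69 (adjusted p = 0.817), while its PD-L1 high fraction lay above H69 and its PD-L1 low fraction below, with log2 fold changes of 1.56 ± 0.07 and -1.38 ± 0.08.

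Plexins are the receptors that semaphorins signal through. Of 9 plexins 4 were higher and 3 lower in PD-L1 high cells, against 39% and 39.4% of all genes. In HLA high cells 8 were higher and 1, PLXNA3, was not called, against 41.1% of all genes higher and 40.2% lower. PLXND1 was at 172, 174 and 168 CPM in PD-L1 high cells, 104, 87.4 and 105 CPM in PD-L1 low cells, 64.5, 78.5 and 76.9 CPM in H69M and 58.9, 53.4 and 53.9 CPM in H69. It rose by 0.80 ± 0.07 in the PD-L1 sort (adjusted p = 4.91e-09) and was at 85.7 and 78.8 CPM in HLA high cells, against 74.7 and 74.3 CPM in HLA low cells (0.14 ± 0.07, adjusted p = 0.0404). That HLA sort call was lost without any of 3 of the 4 libraries, with 0.08 to 0.15 there, and PLXNB1 behaved likewise (0.14 ± 0.07, adjusted p = 0.0472). PLXNB3 was at 1.16 and 0.704 CPM in HLA high cells, against 0.376 and 0.580 CPM in HLA low cells. Its HLA sort call was lost with DESeq2 (adjusted p = 0.0614) and without HLA low library 1 (0.0732) or HLA high library 1 (0.202). PLXNA1 was at 99.4 to 101 CPM in PD-L1 high cells, against 82.7 to 88.5 CPM in PD-L1 low cells, and at 88.1 and 79.7 CPM in HLA high cells, against 43.4 and 42.7 CPM in HLA low cells, with log2 fold changes of 0.22 ± 0.06 and 0.96 ± 0.07. PLXNA2, a receptor of class 6 semaphorins, was at 18.7, 17.6 and 16.2 CPM in PD-L1 high cells, 11.2, 10.5 and 9.47 CPM in PD-L1 low cells, 9.21, 9.30 and 11.7 CPM in H69M and 45.5, 42.4 and 48.1 CPM in H69. The H69EZ level was 20.2 and 18.5 CPM in HLA high cells, against 2.98 and 2.65 CPM in HLA low cells. All H69M groups were below H69, with a log2 fold change of -2.16 ± 0.09 in unsorted H69M, and both high fractions were above their low fractions, by 0.75 ± 0.10 and 2.78 ± 0.11. PLXNC1, the plexin of SEMA7A, was at 34.7, 36.8 and 30.9 CPM in PD-L1 high cells, 62.9, 64.8 and 65.6 CPM in PD-L1 low cells, 80.8, 82.4 and 81.2 CPM in H69M and 183, 184 and 197 CPM in H69. The order of the 4 groups ran up to H69 without overlap, and in HLA high cells PLXNC1 rose, to 88.9 and 90.3 CPM, against 43.8 and 42.8 CPM in HLA low cells. PLXNA4 was at 1.27, 1.92 and 1.06 CPM in PD-L1 high cells, against 0, 0.0465 and 0 CPM in PD-L1 low cells, a ratio of 83.5, with a 95% counting interval of 14.6 to 3341. In H69EZ PLXNA4 was at 4.17 and 3.47 CPM in HLA high cells, against 0.0198 and 0.0464 CPM in HLA low cells, a ratio of 121, with a 95% counting interval of 40.9 to 588.

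Class 4 to 7 semaphorins are mostly bound to the membrane, and they included the member with the largest fitted rise of the PD-L1 sort. SEMA5A, a ligand of PLXNB3, was at 74.7, 71.1 and 69.4 CPM in PD-L1 high cells, 0, 0.0930 and 0.723 CPM in PD-L1 low cells, 12.7, 15.8 and 15.1 CPM in H69M and 0.845, 0.793 and 1.37 CPM in H69. H69M lay between its fractions and above H69, and H69 lay above PD-L1 low cells. The log2 fold change was 8.39 ± 0.24 in the sort (adjusted p = 2.74e-17) and 10.45 without PD-L1 low library 3, and 3.96 ± 0.22 in H69M against H69. SEMA5A in H69EZ was at 1.12 and 1.15 CPM in HLA high and 1.90 and 2.13 CPM in HLA low cells, a log2 fold change of -0.83 ± 0.21 (adjusted p = 9.95e-05). SEMA7A, which has a GPI anchor, was at 6.41, 7.64 and 6.96 CPM in PD-L1 high cells, 1.24, 1.35 and 1.74 CPM in PD-L1 low cells, 4.81, 3.98 and 4.86 CPM in H69M and 0.563, 0.491 and 0.646 CPM in H69. It rose in the sort by 2.31 ± 0.16 (adjusted p = 5.17e-11) and in HLA high cells by 3.35 ± 0.11 (adjusted p = 1.42e-208), to 28.8 and 27.8 CPM, against 2.75 and 2.81 CPM in HLA low cells. SEMA4F was at 9.40, 9.67 and 9.004 CPM in PD-L1 high cells, 3.90, 2.98 and 3.11 CPM in PD-L1 low cells and 0.402, 0.755 and 0.404 CPM in H69, a log2 fold change of 4.08 ± 0.19 in PD-L1 high cells against H69. In the sorts SEMA4F rose by 1.48 ± 0.14 and 4.01 ± 0.23, the second to 5.01 and 4.67 CPM in HLA high cells, against 0.296 and 0.302 CPM in HLA low cells.

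The semaphorins SEMA4D, SEMA6A and SEMA6C fell in both high fractions. SEMA4D, a ligand of PLXNB1, was at 52.1, 55.5 and 55.01 CPM in PD-L1 high cells, against 113, 105 and 117 CPM in PD-L1 low cells, and at 31.2 and 29.2 CPM in HLA high cells, against 76.7 and 75.6 CPM in HLA low cells. Its log2 fold changes were -1.04 ± 0.06 (adjusted p = 1.81e-12) and -1.33 ± 0.07 (adjusted p = 1.99e-72). SEMA6A was at 96.1 to 103 CPM in PD-L1 high cells, 267 to 279 CPM in PD-L1 low cells, 257 to 269.7 CPM in H69M and 285 to 321 CPM in H69, and it fell by 1.44 in the PD-L1 sort and by 0.59 in the HLA sort, to 76.2 and 79.5 CPM in HLA high cells, against 118 and 116 CPM in HLA low cells. SEMA6C was at 11.8 and 10.97 CPM in HLA high cells, against 26.5 and 28.03 CPM in HLA low cells, and at 12.6 to 13.5 CPM in PD-L1 high cells, against 17.9 to 20.5 CPM in PD-L1 low cells. It fell by 1.25 in the HLA sort and by 0.54 in the PD-L1 sort, and no fractions overlapped. SEMA6D was at 22.01 to 23.9 CPM in PD-L1 high cells, against 50.6 to 54.4 CPM in PD-L1 low cells, a log2 fold change of -1.18 ± 0.07, and SEMA4G was at 6.51 to 7.25 CPM in PD-L1 high cells, against 11.4 to 13.6 CPM in PD-L1 low cells, a log2 fold change of -0.88 ± 0.12.

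SEMA6B parted the H69M groups from H69. It was at 9.01, 8.92 and 6.47 CPM in PD-L1 high cells, 6.96, 5.40 and 6.80 CPM in PD-L1 low cells, 2.16, 2.49 and 2.14 CPM in H69M and 0.0402, 0 and 0 CPM in H69, where 1 count was found over the group. The ratio to H69 was 529, with a 95% counting interval of 94.4 to 20937 for PD-L1 high cells and 404, with a 95% counting interval of 72.1 to 15998 for PD-L1 low cells, and the fitted log2 fold changes of 8.56 and 8.18 became 10.36 and 9.98 without H69 library 1. Unsorted H69M lay below both fractions, which overlapped each other, and the call between the fractions (0.37, adjusted p = 0.0194) was lost with library totals (0.23, adjusted p = 0.13) and without PD-L1 low library 2 or PD-L1 high library 1 or 2. In the HLA sort SEMA6B fell, to 1.10 and 0.652 CPM in HLA high cells, against 6.36 and 5.10 CPM in HLA low cells, by 2.67 on the log2 scale.

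Of the Slits, secreted ligands of the Robo receptors, SLIT3 rose and SLIT1 fell with each high group. SLIT3 was at 108, 119 and 117 CPM in PD-L1 high cells, 7.84, 8.0 and 10.4 CPM in PD-L1 low cells, 23.01, 21.2 and 21.8 CPM in H69M and 0.161, 0.151 and 0.0807 CPM in H69. In H69EZ it was at 125 and 121 CPM in HLA high cells, against 3.44 and 2.58 CPM in HLA low cells. No groups of a table overlapped, and unsorted H69M lay between its fractions. Its log2 fold change was 3.74 ± 0.08 in the PD-L1 sort (adjusted p = 6.45e-19), 5.34 ± 0.10 in the HLA sort, 7.22 ± 0.19 in H69M against H69 (adjusted p = 1.91e-17) and 5.87 ± 0.24 in PD-L1 low cells against H69 (adjusted p = 1.71e-14), which share the H69 libraries. SLIT1 was at 18.4, 19.4 and 18.6 CPM in PD-L1 high cells, 39, 35.3 and 40.1 CPM in PD-L1 low cells, 26.2, 34.1 and 29.95 CPM in H69M and 47.3, 46.6 and 46.97 CPM in H69. It fell by 1.02 in the PD-L1 sort (adjusted p = 8.94e-10) and by 1.94 in the HLA sort (adjusted p = 3.35e-08), to 0.260 and 0.235 CPM in HLA high cells, against 0.988 and 0.928 CPM in HLA low cells. SLIT2 was at 124, 125 and 125 CPM in PD-L1 high cells, 113, 112 and 117 CPM in PD-L1 low cells, 131, 142 and 135 CPM in H69M and 98.4, 89.4 and 99.8 CPM in H69. The H69EZ level was 96.1 and 96.9 CPM in HLA high cells, against 63.6 and 68.1 CPM in HLA low cells. The difference between the PD-L1 fractions was small (0.13 ± 0.05, adjusted p = 0.0332), had the other sign with library totals, and was not called without any one of the PD-L1 high libraries or without PD-L1 low library 1 or 2.

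Of 4 Robo receptors 2 were higher and 2 lower in PD-L1 high cells, against 39% and 39.4% of all genes. In HLA high cells 3 were higher and 1 lower, against 41.1% and 40.2% of all genes. ROBO2 was at 40.6, 38.9 and 37.1 CPM in PD-L1 high cells, 110.2, 120.1 and 110.4 CPM in PD-L1 low cells, 56.4, 56.1 and 55.8 CPM in H69M and 70.6, 68.02 and 75.1 CPM in H69. In H69EZ it was at 16.6 and 18.01 CPM in HLA high cells, against 39.1 and 40.1 CPM in HLA low cells. It fell by 1.55 (adjusted p = 2.33e-15) and 1.20 (adjusted p = 3.49e-50) in the sorts, and neither pair of fractions overlapped. ROBO3, which differs from the other Robo receptors in hardly binding Slits in mammals, had no count in H69 and was at 3.57, 3.90 and 4.43 CPM in PD-L1 high cells, 0.488, 0.558 and 0.289 CPM in PD-L1 low cells and 0.854, 1.04 and 0.765 CPM in H69M. It was at least 83.2-fold higher in PD-L1 high cells than in H69, and it rose in the sort by 3.06 ± 0.24 (adjusted p = 1.21e-09). ROBO4, a receptor known from endothelium, had no count in H69 or HLA low cells and 1 in PD-L1 low cells. It was at 1.81, 2.14 and 1.62 CPM in PD-L1 high cells, 0, 0 and 0.0723 CPM in PD-L1 low cells, 2.02, 1.59 and 1.72 CPM in H69M and 0.481 and 0.365 CPM in HLA high cells. PD-L1 high over PD-L1 low cells gave a ratio of 108, with a 95% counting interval of 19.03 to 4327, and the fitted log2 fold change of 6.32 became 8.29 without PD-L1 low library 3. The summed level of endothelial markers was 29.7 to 33.3 CPM in PD-L1 high cells, 14.5 to 15.3 CPM in PD-L1 low cells, 24.5 to 27.2 CPM in H69M and 47.0 to 53.2 CPM in H69. In the H69EZ fractions it was 240.0 and 250.4 CPM in HLA high cells, against 2.00 and 2.06 CPM in HLA low cells. Most of that sum was TEK, at 231 ± 7.64 CPM in HLA high cells, against 0.0511 ± 0.0395 CPM in HLA low cells, while CDH5 was at 0.382 ± 0.0867 CPM in HLA high cells, against 0.102 ± 0.0790 CPM in HLA low cells. Their part in the ROBO4 values was not tested.

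**Figure D3:**
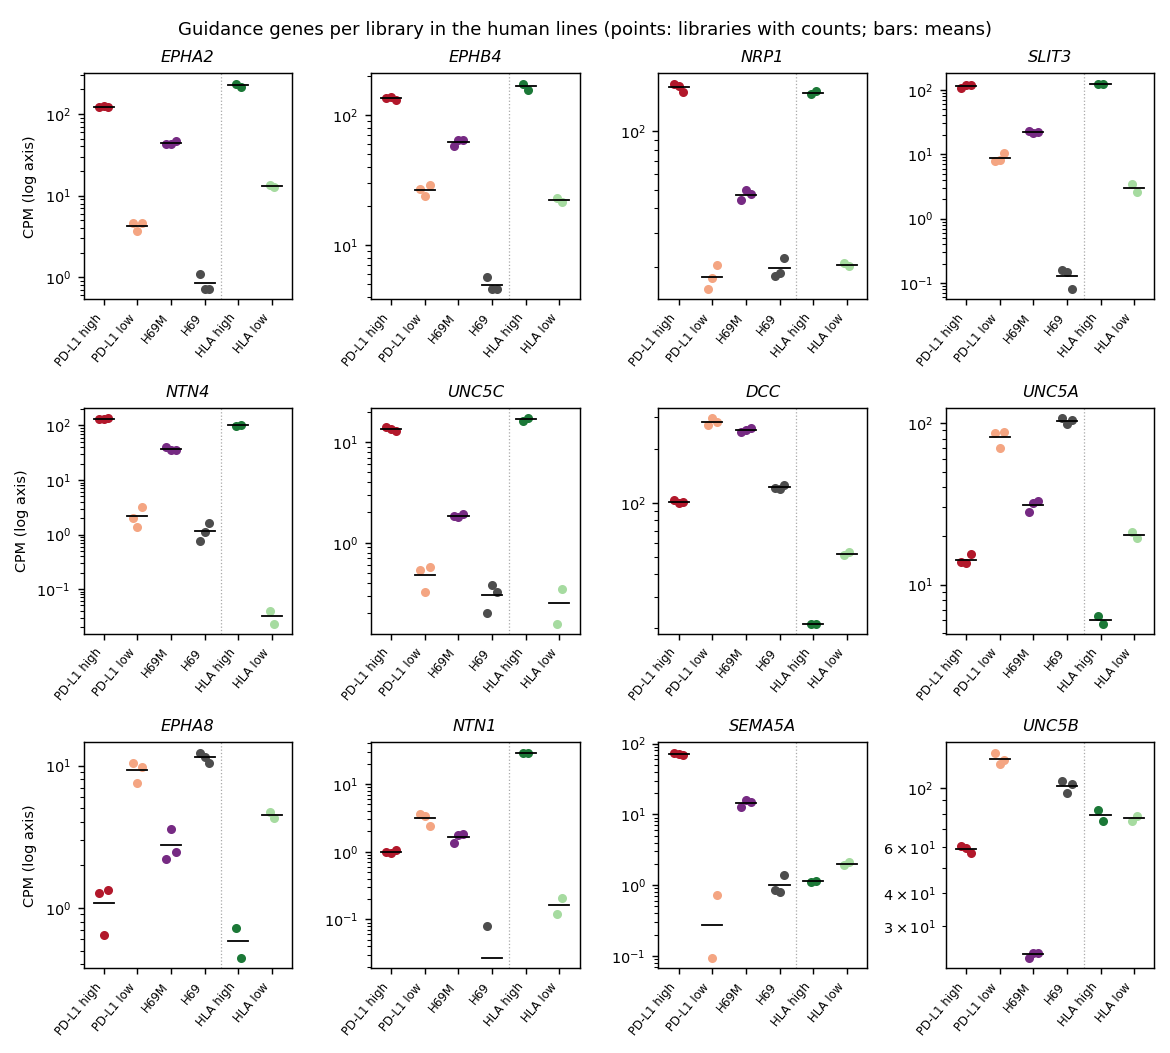
CPM of 12 guidance genes in each library of the human groups, on log axes that differ between panels, with PD-L1 high, PD-L1 low, H69M and H69 left of the dotted line and HLA high and HLA low right of it. Points are libraries with counts and bars are group means. NTN1 had no count in 2 H69 libraries and SEMA5A none in 1 PD-L1 low library, and UNC5B in unsorted H69M, at 22.7 to 23.8 CPM, is below both of its fractions.

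NTN4 had the largest fitted change of all members in the HLA sort. NTN4, a netrin of basement membranes that binds laminin, was at 131, 133 and 137 CPM in PD-L1 high cells, 2.04, 1.35 and 3.18 CPM in PD-L1 low cells, 40.6, 36.2 and 35.7 CPM in H69M and 0.765, 1.10 and 1.61 CPM in H69. PD-L1 low cells overlapped H69, H69M lay far above both, and PD-L1 high cells lay above H69M, with a log2 fold change of 6.01 ± 0.13 (adjusted p = 6.32e-19) in the sort and 5.12 ± 0.16 in H69M against H69 (adjusted p = 2.53e-16). In H69EZ NTN4 was at 96.4 and 104 CPM in HLA high cells, against 0.0395 and 0.0232 CPM in HLA low cells, with 3 counts in HLA low cells, a ratio of 3109, with a 95% counting interval of 1064 to 15081. NTN1, the classic netrin, which attracts axons through DCC and repels them through UNC5 receptors, was at 0.979, 0.962 and 1.06 CPM in PD-L1 high cells, 3.63, 3.40 and 2.39 CPM in PD-L1 low cells, 1.35, 1.74 and 1.80 CPM in H69M and 0.0805, 0 and 0 CPM in H69. With 2 counts in H69 the ratio to H69 was 52.1, with a 95% counting interval of 14.1 to 436 for H69M, and the fitted 5.45 became 8.03 without H69 library 1. PD-L1 high cells were below PD-L1 low cells without overlap, with a log2 fold change of -1.69 ± 0.23 (adjusted p = 1.66e-06). In H69EZ the order was the other way, with 29.1 and 28.9 CPM in HLA high cells, against 0.119 and 0.209 CPM in HLA low cells, a log2 fold change of 7.48 ± 0.18. NTN3 was at 1.48 to 2.56 CPM in PD-L1 high cells, 4.34 to 4.79 CPM in PD-L1 low cells and 4.19 to 6.05 CPM in H69, and it fell by 1.07 in the PD-L1 sort.

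Of the netrin receptors DCC and UNC5A fell and UNC5C and UNC5D rose in both sorts. DCC, the receptor of netrin attraction, was at 104, 100 and 101 CPM in PD-L1 high cells, 271, 298 and 282 CPM in PD-L1 low cells, 248, 256 and 262 CPM in H69M and 121, 120.5 and 126 CPM in H69. It was at 21.3 and 21.3 CPM in HLA high cells, against 51.4 and 53.1 CPM in HLA low cells. DCC fell by 1.48 in the PD-L1 sort (adjusted p = 3.95e-16) and by 1.30 in the HLA sort (adjusted p = 6.61e-63), and both H69M and its PD-L1 low fraction lay above H69, by 1.06 ± 0.05 and 1.21 ± 0.05. UNC5A was at 13.9, 13.5 and 15.5 CPM in PD-L1 high cells, 86.2, 70.1 and 87.2 CPM in PD-L1 low cells, 28, 31.99 and 32.8 CPM in H69M and 107, 98.4 and 104 CPM in H69. The H69EZ level was 6.41 and 5.73 CPM in HLA high cells, against 21.03 and 19.5 CPM in HLA low cells. The PD-L1 high fraction was lowest and no groups of a table overlapped, with falls of 2.51 (adjusted p = 1.19e-15) and 1.73 (adjusted p = 1.79e-68). UNC5C moved the other way, with 14.05, 13.6 and 12.9 CPM in PD-L1 high cells, 0.532, 0.326 and 0.579 CPM in PD-L1 low cells, 1.84, 1.79 and 1.91 CPM in H69M and 0.201, 0.378 and 0.323 CPM in H69, and 16.2 and 17.3 CPM in HLA high cells, against 0.158 and 0.348 CPM in HLA low cells. It rose by 4.84 ± 0.17 (adjusted p = 9.04e-16) and 6.07 ± 0.18 (adjusted p = 5.71e-243) in the sorts, the second of which became 6.70 without HLA low library 2. UNC5D, at 1.13, 1.12 and 1.13 CPM in PD-L1 high cells, against 0, 0.0930 and 0 CPM in PD-L1 low cells, rose with it at a low level, and it had no count in HLA low cells and 0.561 and 0.495 CPM in HLA high cells, at least 16.6-fold higher. In PD-L1 high over PD-L1 low cells UNC5D had a ratio of 32.5, with a 95% counting interval of 8.62 to 275, and its fitted 4.80 became 7.51 without PD-L1 low library 2. UNC5B was at 60.3, 59.5 and 56.6 CPM in PD-L1 high cells, 137, 124 and 128 CPM in PD-L1 low cells, 22.7, 23.8 and 23.8 CPM in H69M and 106, 96.3 and 104 CPM in H69. It fell by 1.14 in PD-L1 high cells and was not called in the HLA sort, at 82.6 and 75.2 CPM in HLA high and 75.3 and 78.3 CPM in HLA low cells (adjusted p = 0.577). UNC5B has an antisense gene, UNC5B-AS1, which was too low to be tested.

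Unsorted H69M mostly lay between or among its fractions. Of 69 tested members, 4 were above every library of both fractions, namely EPHA1, PLXNC1, SEMA6C and SLIT2, and 9 were below them, namely EPHA6, PLXNB3, PLXND1, SEMA3B, SEMA3C, SEMA3F, SEMA4A, SEMA6B and UNC5B. Of all 15445 genes tested 19.7% lay outside both fractions in the same way, so the members' count is near the background. UNC5B had the widest gap in CPM to the nearer fraction, PD-L1 high, as its values above show. Some members were far from H69 in unsorted H69M. EPHA1, which had no count in H69, was at 0.0534 to 0.0979 CPM in PD-L1 high cells, 0.434 to 0.620 CPM in PD-L1 low cells and 0.650 to 0.995 CPM in H69M, and was at least 16.4-fold higher in H69M than in H69. Its call in PD-L1 high cells against H69 was lost without H69 library 2 (adjusted p = 0.0532) and without PD-L1 high library 1 (adjusted p = 0.053). EPHA6 was at 1.48 to 1.81 CPM in PD-L1 high cells, 2.46 to 3.02 CPM in PD-L1 low cells, 0.612 to 0.846 CPM in H69M and 0 to 0.161 CPM in H69, with a log2 fold change of 4.63 ± 0.34 in PD-L1 low cells against H69.

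**Figure D4:**
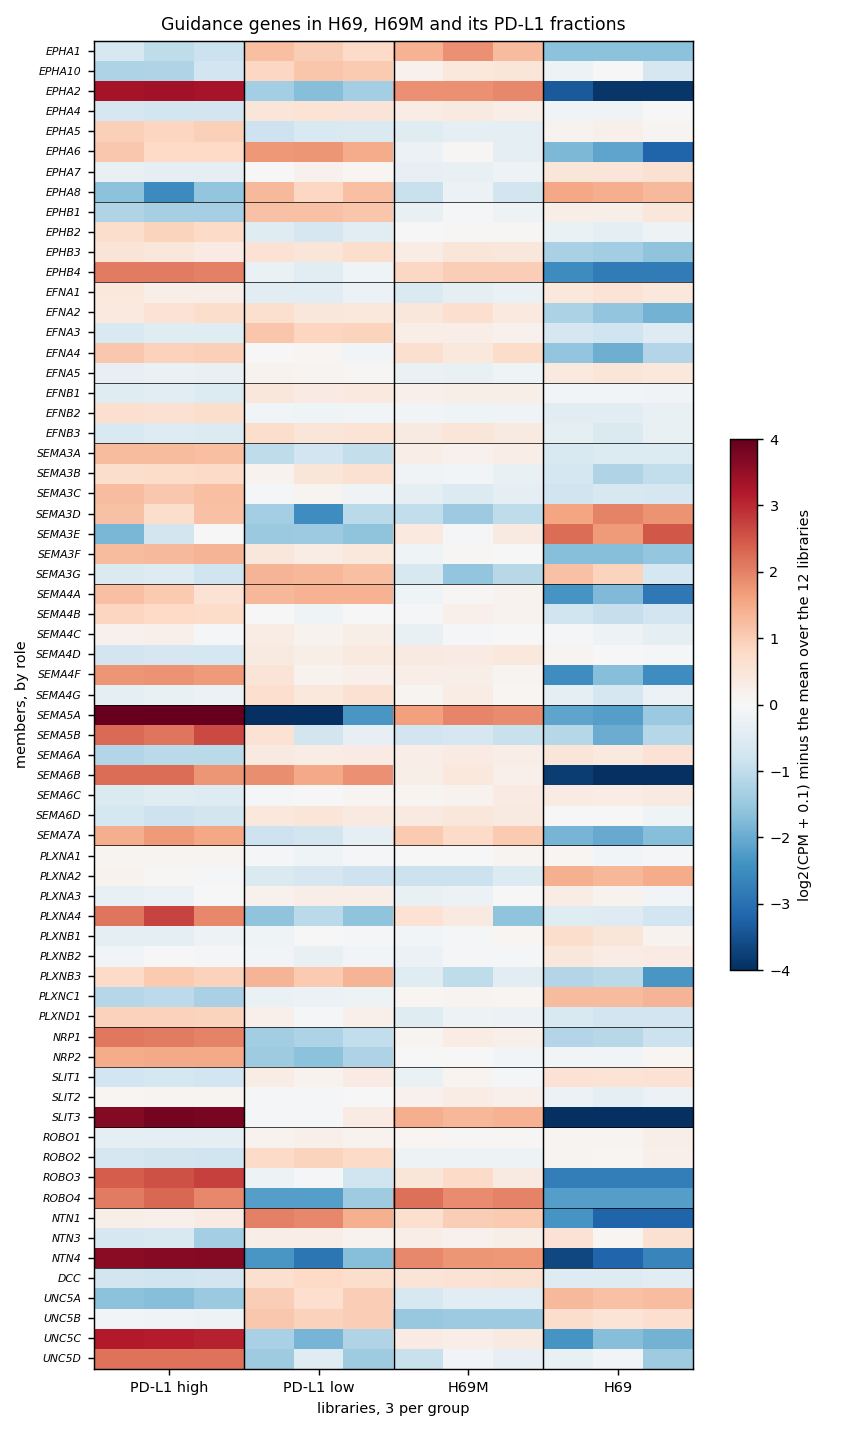
Each guidance gene in the 12 libraries of the H69 table, as log2(CPM + 0.1) minus its mean over these libraries, with rows grouped by role and 3 columns for each of PD-L1 high, PD-L1 low, H69M and H69. Red is above and blue below the gene's mean, and colours are capped at -4 and 4. SLIT3, NTN4 and EPHA2 are red in PD-L1 high cells and H69M and blue in H69, and SEMA6B is blue in H69 only.

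In the mouse lines SLIT3, EPHB4 and NTN1 led the rises under their mouse names. Slit3 was at 133, 134 and 116 CPM in the RPP-A columns RPPM1, RPPM2 and RPPM3, against 2.28, 0.416 and 0.492 CPM in the RPP columns EHK_RPP4, RPP1 and RPP2, and the same order of columns is used below. Slit2 was at 124, 132 and 86.4 CPM in RPP-A, against 5.79, 5.19 and 5.13 CPM in RPP. Slit1 was at 1.36, 0.976 and 0.187 CPM in RPP-A, against 54.97, 53.5 and 49.6 CPM in RPP. Slit3 rose by 6.97 ± 0.41 (adjusted p = 2.62e-06) and Slit2 by 4.41 ± 0.19 (adjusted p = 6.22e-07), Slit1 fell by 5.97 (adjusted p = 2.75e-06), and no groups overlapped. Of their receptors, Robo1 was at 35.4, 36.9 and 36.5 CPM in RPP-A, against 228, 229 and 220.3 CPM in RPP. Robo2 was at 4.54, 5.05 and 2.69 CPM in RPP-A, against 29.9, 30.4 and 23.6 CPM in RPP. Both fell, by 2.64 (adjusted p = 1.99e-07) and 2.77 (adjusted p = 1.9e-05). EHK_RPP4 had a Slit3 level above the other RPP libraries, and without it the Slit3 change was 8.16. The same library held a fibroblast marker sum of 461 CPM and a non-neuroendocrine sum of 290.5 CPM, against 88.3 and 94.7 CPM and 69.4 and 75.6 CPM in the other RPP libraries, and the part of these in its values was not tested.

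Netrins and their receptors changed by large folds in RPP-A. Ntn1 was at 229.9, 231 and 151 CPM in RPP-A, against 13.2, 3.39 and 3.45 CPM in RPP, a log2 fold change of 4.96 ± 0.53 (adjusted p = 6.26e-05), or 5.94 without EHK_RPP4. Ntn4 fell, to 7.66, 10.2 and 8.93 CPM in RPP-A, against 47.3, 75.9 and 65.96 CPM in RPP, by 2.82 (adjusted p = 7.07e-06), whereas NTN4 rose in both human sorts. Unc5a was at 1.69, 1.66 and 1.94 CPM in RPP-A, against 68.8, 62.5 and 61.9 CPM in RPP. Unc5b was at 393, 418 and 187 CPM in RPP-A, against 76.6, 38.4 and 36.8 CPM in RPP. Unc5a fell by 5.18 (adjusted p = 1.3e-07), while Unc5b rose by 2.72 ± 0.40 (adjusted p = 0.000382), with RPPM3 below the other RPP-A libraries and above all RPP libraries. Dcc was at 0.0678, 0 and 0.0625 CPM in RPP-A, against 3.59, 5.40 and 4.99 CPM in RPP, and RPP over RPP-A gave a ratio of 114, with a 95% counting interval of 31.04 to 945. Unc5d had no count in RPP-A and 0.816, 3.32 and 2.67 CPM in RPP, at least 37.7-fold lower in RPP-A. Ntn3 was called higher (0.81 ± 0.32, adjusted p = 0.0483) with overlapping groups, at 2.30, 2.35 and 1.37 CPM in RPP-A, against 0.816, 1.39 and 1.20 CPM in RPP. Its call was lost when any library but RPPM3 was left out, with 0.68 (adjusted p = 0.0841) without EHK_RPP4. It was also lost with library totals (0.45, adjusted p = 0.229), with no filter (0.83, adjusted p = 0.0539) and with DESeq2 (0.83, adjusted p = 0.095).

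**Figure D5:**
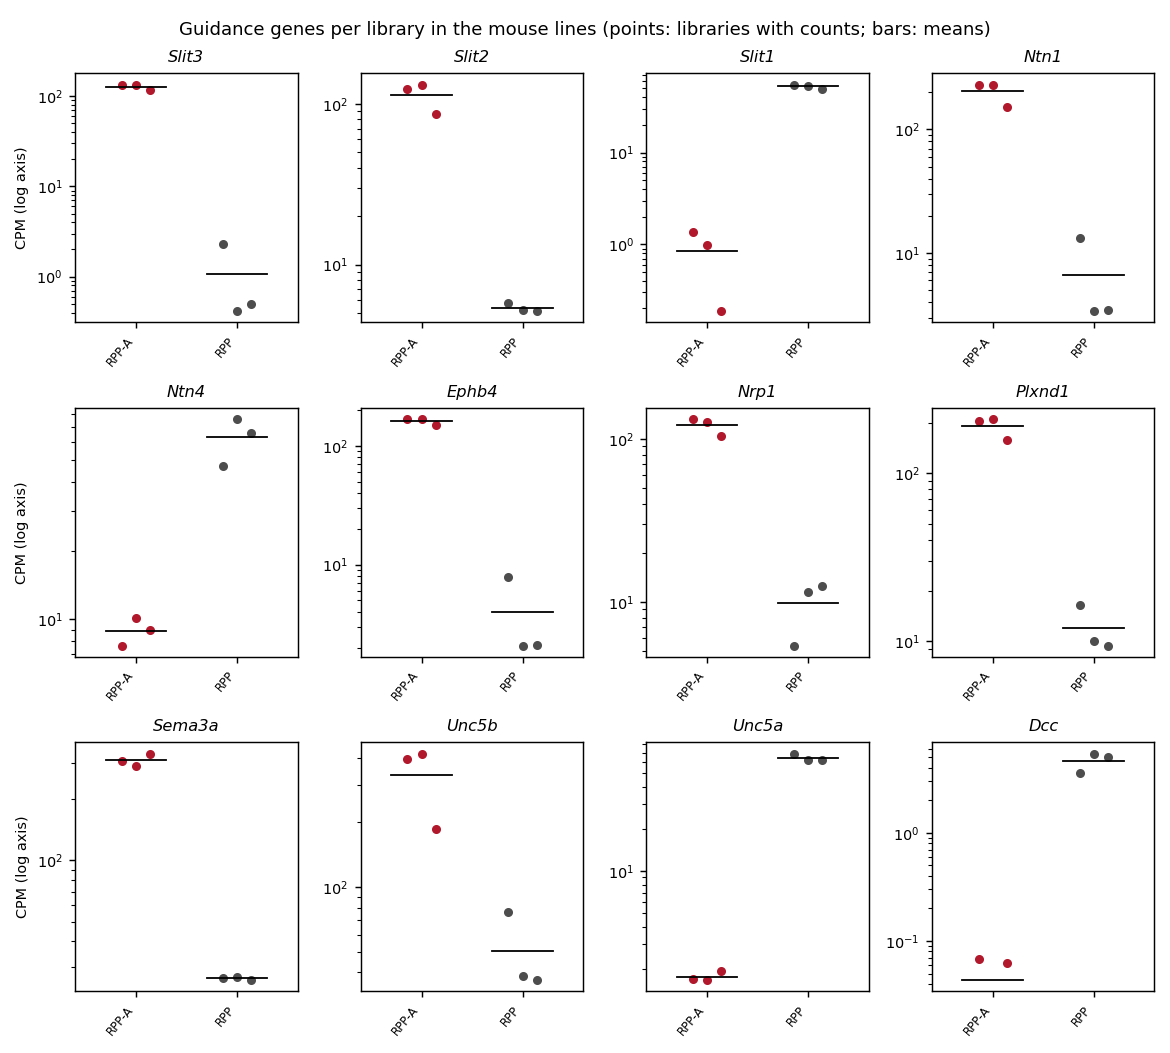
CPM of 12 guidance genes in each library of the mouse lines, RPP-A left of RPP, on log axes that differ between panels. Points are libraries with counts and bars are group means, and Dcc had no count in 1 RPP-A library. The groups do not overlap in any panel, with Slit3 at 116 to 134 CPM in RPP-A and at 0.416 to 2.28 CPM in RPP.

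Mouse semaphorins, neuropilins and plexins also split. Sema3a was at 308, 290.01 and 335 CPM in RPP-A, against 26.3, 26.8 and 25.7 CPM in RPP. Sema3c was at 187, 186 and 268 CPM in RPP-A, against 34.1, 44.7 and 44.7 CPM in RPP. They rose by 3.56 ± 0.10 (adjusted p = 1.6e-07) and 2.38 ± 0.19 (adjusted p = 1.14e-05), and Sema3d by 1.78 ± 0.21, to 11.6 to 14.9 CPM in RPP-A, against 2.94 to 4.78 CPM in RPP. Sema3g fell, to 4.93 to 6.49 CPM in RPP-A, against 16.1 to 16.96 CPM in RPP. Nrp1 was at 132, 128 and 105 CPM in RPP-A, against 5.38, 11.4 and 12.5 CPM in RPP. Nrp2 was at 166, 173 and 118 CPM in RPP-A, against 67.9, 32.97 and 31.6 CPM in RPP. Both rose, by 3.62 ± 0.28 (adjusted p = 1.08e-05) and 1.79 ± 0.31 (adjusted p = 0.00102), though EHK_RPP4 was the lowest RPP library for Nrp1 and the highest for Nrp2. Of the plexins, Plxnd1 was at 203, 209.7 and 158 CPM in RPP-A, against 16.4, 10.04 and 9.42 CPM in RPP (4.0 ± 0.24, adjusted p = 2.61e-06), and Plxna1 at 312, 315 and 259.7 CPM in RPP-A, against 142, 106 and 103 CPM in RPP (1.34 ± 0.15). Plxna2 was at 9.62, 9.64 and 5.12 CPM in RPP-A, against 324, 316 and 306 CPM in RPP, and Plxnb1 at 27.6, 23.4 and 14.9 CPM in RPP-A, against 307, 350.1 and 344 CPM in RPP. Plxna4 was at 0.949, 1.03 and 0.125 CPM in RPP-A, against 9.30, 7.90 and 6.68 CPM in RPP. They fell by 5.28 (adjusted p = 7.97e-07), 3.92 (adjusted p = 2.36e-06) and 3.48 (adjusted p = 0.000255), and RPPM3 was the lowest library for each. Sema4d, the ligand of Plxnb1, was at 2.51, 3.04 and 1.44 CPM in RPP-A, against 79.1, 71.7 and 73.8 CPM in RPP. Sema4f was at 0.0678, 0.287 and 0.312 CPM in RPP-A, against 9.79, 8.10 and 10.1 CPM in RPP. They fell by 5.0 (adjusted p = 6.07e-07) and 5.30 (adjusted p = 4.29e-06).

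Mouse Eph receptors and ephrins followed the same pattern of large changes in both directions. Ephb4 was at 168, 167 and 150.3 CPM in RPP-A, against 7.83, 2.08 and 2.11 CPM in RPP, a log2 fold change of 5.37 ± 0.45 (adjusted p = 1.69e-05), or 6.31 without EHK_RPP4. Epha7 was at 5.96, 5.62 and 9.87 CPM in RPP-A, against 0.163, 0.346 and 0.422 CPM in RPP, a rise of 4.46 ± 0.40 (adjusted p = 2.49e-05), and Epha2 at 9.96, 9.76 and 12.7 CPM in RPP-A, against 7.75, 5.61 and 5.41 CPM in RPP, a rise of 0.79 ± 0.20 (adjusted p = 0.00726). The Epha2 groups did not overlap, and with library totals the change was 0.43 (adjusted p = 0.0849). Epha4 rose too, to 23.4 to 30.4 CPM in RPP-A, against 6.36 to 7.48 CPM in RPP, while the human gene fell in both sorts. Ephb2 was at 2.78, 3.67 and 2.56 CPM in RPP-A, against 106, 91.6 and 86.2 CPM in RPP. Ephb6, a receptor without kinase activity, was at 8.27, 8.44 and 6.12 CPM in RPP-A, against 67.9, 62.7 and 62.2 CPM in RPP. They fell by 4.97 (adjusted p = 2.17e-07) and 3.08 (adjusted p = 7.53e-07), and Epha8 fell by 3.76 (adjusted p = 0.00208), or 4.72 without RPPM1, to 0 to 0.271 CPM in RPP-A, against 1.05 to 3.02 CPM in RPP. Among the ephrins, Efna4 was at 11.2, 10.7 and 9.12 CPM in RPP-A, against 2.12, 1.04 and 1.20 CPM in RPP (2.85 ± 0.27, adjusted p = 3.44e-05). Efnb1 rose by 2.18 ± 0.17 and Efnb2 by 1.20 ± 0.12, and Efnb3 fell, to 0.812 to 2.01 CPM in RPP-A, against 10.1 to 12.1 CPM in RPP.

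Some members went one way in both human sorts and the other way in the mouse lines. Higher in PD-L1 high and HLA high cells and lower in RPP-A were 8 members (13.3%, against 6.89% of all genes), namely EPHA5, EPHB2, NTN4, PLXNA2, PLXNA4, SEMA4F, SEMA5B and UNC5D, and lower in both human sorts and higher in RPP-A were 2 (3.33%, against 5.74%), namely EPHA4 and SEMA6A. Epha5 was at 0, 0.230 and 0.0625 CPM in RPP-A, against 4.73, 4.29 and 3.80 CPM in RPP, where EPHA5 was at 55.6 to 58.8 CPM in PD-L1 high cells, against 17.2 to 20.4 CPM in PD-L1 low cells, and at 54.01 and 61.1 CPM in HLA high cells, against 32.8 and 34.3 CPM in HLA low cells. The Epha5 change was -5.26 ± 0.51 (adjusted p = 3.66e-05), or -6.69 without RPPM2. Sema5b, of the class 5 semaphorins with thrombospondin repeats, was at 0, 0.0574 and 0 CPM in RPP-A, against 3.75, 3.88 and 4.08 CPM in RPP, and RPP over RPP-A gave a ratio of 188, with a 95% counting interval of 33.3 to 7489. SEMA5B was at 1.81, 1.66 and 2.39 CPM in PD-L1 high cells, against 0.488, 0.140 and 0.217 CPM in PD-L1 low cells, and at 0.961 and 0.782 CPM in HLA high cells, against 0.0791 and 0.278 CPM in HLA low cells, low levels throughout the human libraries. Sema6a was at 19.1, 18.1 and 20.9 CPM in RPP-A, against 13.1, 3.60 and 4.29 CPM in RPP, and its change of 1.48 ± 0.44 (adjusted p = 0.0152) was 2.34 without EHK_RPP4 and lost its call without RPP2 (1.24, adjusted p = 0.0527). Human and mouse genes were matched by symbol, and the lines differ in how they were derived, so that species and derivation cannot be told apart.

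Further members were called in the mouse lines against the direction of 1 human sort. Opposite to the HLA sort were Robo1 (-2.64, against 0.51 for ROBO1 in the HLA sort) and Plxnb1 (-3.92, against 0.14 for PLXNB1), whose mouse values are given above, and the following. Ephb3 fell, to 46.8, 43.8 and 39.98 CPM in RPP-A, against 97.5, 105 and 106 CPM in RPP (-1.24 ± 0.09, adjusted p = 9.23e-06). Sema3e fell, to 10.2, 9.99 and 7.31 CPM in RPP-A, against 51.6, 76.3 and 60.3 CPM in RPP (-2.77 ± 0.19, adjusted p = 6.15e-06). Plxnc1 fell, to 6.91, 6.37 and 4.43 CPM in RPP-A, against 34.7, 42.2 and 40.8 CPM in RPP (-2.73 ± 0.18, adjusted p = 4.75e-06), as PLXNC1 did in the PD-L1 sort. None of these mouse groups overlapped. Epha1 was at 2.24, 1.72 and 2.44 CPM in RPP-A, against 13.3, 8.52 and 8.93 CPM in RPP (-2.26 ± 0.25, adjusted p = 8.15e-05), and Efna5 at 18.9, 17.8 and 17.3 CPM in RPP-A, against 26.2, 28.5 and 28.3 CPM in RPP (-0.62 ± 0.10, adjusted p = 0.000765). Sema5a rose, to 10.5, 10.8 and 12.9 CPM in RPP-A, against 8.16, 7.83 and 6.96 CPM in RPP (0.58 ± 0.15, adjusted p = 0.00873), and lost its call with library totals (0.21, adjusted p = 0.232). SEMA4A, a semaphorin with roles in T cells, was at 1.18 and 1.54 CPM in HLA high cells, against 0.178 and 0.510 CPM in HLA low cells (2.01 ± 0.30, adjusted p = 3.33e-11), or 2.89 without HLA low library 2. Sema4a was at 1.63, 1.38 and 1.69 CPM in RPP-A, against 4.65, 2.01 and 2.88 CPM in RPP (-1.01 ± 0.34, adjusted p = 0.0252), and its call was lost when any library but RPP1 was left out, with -0.60 (adjusted p = 0.0623) without EHK_RPP4.

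Opposite to the PD-L1 sort were, beside members described above, Sema4g, Efnb1 and Sema6b. Sema4g rose, to 12.1, 12.7 and 17.2 CPM in RPP-A, against 8.73, 3.67 and 3.31 CPM in RPP (1.43 ± 0.37, adjusted p = 0.00755), or 2.05 without EHK_RPP4. Efnb1 was at 124, 125 and 99.1 CPM in RPP-A, against 31.7, 23.4 and 21.7 CPM in RPP (adjusted p = 1.07e-05). Sema6b fell, to 1.49, 2.01 and 1.499 CPM in RPP-A, against 3.996, 4.57 and 4.92 CPM in RPP (-1.42 ± 0.22, adjusted p = 0.00053), whereas the call of SEMA6B between the PD-L1 fractions had overlapping groups.

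Partners of these pathways, 77 co-receptors, other guidance ligands and intracellular proteins, were called about as often as the members and in both directions. In the PD-L1 sort 32 were higher and 32 lower of 73 tested, in the HLA sort 40 were higher and 29 lower of 75, and in RPP-A 27 were higher and 31 lower of 73. Of all genes tested 39%, 41.1% and 37.6% were higher and 39.4%, 40.2% and 40.6% lower in these comparisons. No test of these shares was made. The median log2 fold change of the partners was 0.01, 0.23 and -0.21, beside 0.10, 0.57 and -0.35 over the members. Over all genes tested it was -0.003, 0 and -0.039. ITGA1, the integrin chain of a SEMA7A receptor, was at 169 ± 4.17 CPM in PD-L1 high cells, against 2.58 ± 1.52 CPM in PD-L1 low cells and at 78.3 ± 5.80 CPM in HLA high cells, against 0.0430 ± 0.00486 CPM in HLA low cells, and Itga1 at 24.6 ± 2.63 CPM in RPP-A, against 1.93 ± 0.453 CPM in RPP. It rose in all 3. ABLIM3, an actin-binding LIM protein, averaged 42.5 ± 2.01 CPM in PD-L1 high cells, against 0.291 ± 0.193 CPM in PD-L1 low cells, and FLRT2, a ligand of UNC5D, 92.9 ± 6.65 CPM in PD-L1 high cells, against 6.12 ± 0.536 CPM in PD-L1 low cells. MET, the receptor of hepatocyte growth factor and a plexin-B partner, averaged 188 ± 10.5 CPM in HLA high cells, against 1.69 ± 0.126 CPM in HLA low cells and 115 ± 2.08 CPM in RPP-A, against 3.09 ± 1.85 CPM in RPP in the mouse lines, FLRT3 9.80 ± 2.02 CPM in HLA high cells, against 0.244 ± 0.0176 CPM in HLA low cells, and Erbb2, a further plexin-B partner, 47.4 ± 1.82 CPM in RPP-A, against 0.637 ± 0.471 CPM in RPP. The largest falls of the PD-L1 sort were those of LINGO1 (-2.97), CNTN2 (-2.86) and RGMA (-2.48), and those of the HLA sort were DSCAM (-2.41), a netrin receptor, SRGAP3 (-2.40), a GTPase-activating protein of Slit and Robo signalling, and RND1 (-2.12). In RPP-A the adhesion molecule gene Chl1 was at 0.386 ± 0.164 CPM in RPP-A, against 88.4 ± 4.76 CPM in RPP, and Dpysl5, of the collapsin response mediators of SEMA3A signalling, at 2.11 ± 1.07 CPM in RPP-A, against 313 ± 18.1 CPM in RPP.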

How the data were processed

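RNA was measured in 22 libraries, prepared by exome capture from 250 ng of total RNA and sequenced on a NextSeq 500, per the labels' protocols. The deposited tables hold whole-number counts per gene symbol, not normalized, 1 table each for H69 and H69M, for H69EZ and for the mouse lines. Alignment with STAR 2.6.1 and the builds hg19 and mm10 are named in the submitters' processing notes. Which program counted reads, and its annotation and strand setting, is not given in the sources used here. Overlapping and antisense genes are uncertain. The mouse columns match the labels by group only, and they are called by their column names.

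Each table was fitted on its own with edgeR 4.0.16 and limma 3.58.1 in R 4.3.3. Genes were kept by filterByExpr at a minimum count of 10, libraries were scaled by TMM, 1 coefficient was fitted per group, and quasi-likelihood tests were adjusted by Benjamini-Hochberg over all genes tested, with a threshold of 0.05. H69EZ left 2 residual degrees of freedom, so its spread rests on all genes together and its p-values are very small. Adjusted p-values that were too small to be written are left out. Log2 fold changes are given ± SE, where the SE was derived as the size of the change over the square root of its F statistic. The fit was tested on simulated counts, with independent libraries and the same spread for every table. Only a small part of the genes was changed there, up and down alike. The simulation therefore does not cover scaling or calls where most genes differ, as they did here. The spread fitted in the mouse lines was larger than the simulated one, so that test does not cover the mouse fit. Where a group had no count, a fold is given against a floor of 3 counts over that group, and with 1 to 3 counts a ratio with an exact 95% interval for the counts.

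Full values were given to members that were called, did not overlap between groups, changed at least 2-fold and reached a mean of 5 CPM in the higher group, at most 10 per direction and comparison, to those at 0 in a whole group and at 5 CPM or more in the other, and to those called in the same direction in both human sorts and the mouse lines or in opposite directions in any 2 of them. Of the partner list, the 3 largest called folds per direction and comparison were named, except for an item that is not reported here. Members, lists and rules were chosen with earlier results of these data known, and the promoters shown were chosen after values were seen. The alternatives were DESeq2 1.42.0 and its size factors, library totals, no filter, only the groups compared, at least 2-fold changes, the replicate number as a block and each library left out. Leaving out EHK_RPP4 and RPPM3, and summing RPPM1 and RPPM2, were added after the data were seen.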

Additional observations from a re-analysis of the deposited data

Results flagged for a closer look

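The members below were called in opposite directions by the PD-L1 sort of H69M and the HLA sort of H69EZ, with no overlap between the fractions in either sort. The fractions are in separate tables, so the difference between the sorts was not tested. For log2 fold changes the PD-L1 sort is given before the HLA sort.

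NTN1 (-1.69 and 7.48), EPHB1 (-2.45 and 1.32) and SEMA5A (8.39 and -0.83) had the values per library given above. EPHA1, an EphA receptor, was at 0.0979, 0.0534 and 0.0703 CPM in PD-L1 high cells, against 0.620, 0.512 and 0.434 CPM in PD-L1 low cells, and at 0.340 and 0.313 CPM in HLA high cells, against 0.119 and 0.0696 CPM in HLA low cells. Its values of -2.74 and 1.74 are thus at levels under 1 CPM, and DESeq2 did not call it in the HLA sort (adjusted p = 0.0626). EPHA7 was at 44.8, 41.7 and 42.3 CPM in PD-L1 high cells, against 55.8, 61.8 and 57.6 CPM in PD-L1 low cells (-0.44), and at 25.2 and 28.6 CPM in HLA high cells, against 9.55 and 8.84 CPM in HLA low cells (1.54). PLXNC1 changed by -0.91 and 1.05.

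EFNA1 was at 12.2, 11 and 10.8 CPM in PD-L1 high cells, against 6.69, 6.79 and 7.81 CPM in PD-L1 low cells (0.69), and at 16.8 and 14.5 CPM in HLA high cells, against 24.1 and 25.5 CPM in HLA low cells (-0.66). EFNB1 was at 59.6, 60.8 and 57.2 CPM in PD-L1 high cells, against 114, 103 and 109.5 CPM in PD-L1 low cells (-0.88), and at 97.4 and 89.3 CPM in HLA high cells, against 68.5 and 62.5 CPM in HLA low cells (0.51). SEMA6D was at 29.02 and 32.8 CPM in HLA high cells, against 26.3 and 24.6 CPM in HLA low cells (-1.18 and 0.27). Its HLA sort call was lost with library totals (0.12, adjusted p = 0.136) and without HLA low library 2 (0.23, adjusted p = 0.0978). ROBO1 was at 465, 459 and 471 CPM in PD-L1 high cells, against 665, 699.9 and 669 CPM in PD-L1 low cells, and at 386 and 412 CPM in HLA high cells, against 282 and 279 CPM in HLA low cells (-0.54 and 0.51). EFNA5 was at 51.7, 54.5 and 52.3 CPM in PD-L1 high cells, against 70.95, 70.1 and 66.5 CPM in PD-L1 low cells (-0.39), and at 86.4 and 86.6 CPM in HLA high cells, against 72.5 and 70.5 CPM in HLA low cells (0.27). Its HLA sort call was lost with library totals (0.12, adjusted p = 0.0754) and without HLA low library 2 (0.25, adjusted p = 0.0535). PLXNB1 was at 53.6, 53.5 and 59.4 CPM in PD-L1 high cells, against 61.6, 67.7 and 66.1 CPM in PD-L1 low cells (-0.23), and at 70.3 and 64.7 CPM in HLA high cells, against 59.8 and 62.6 CPM in HLA low cells (0.14). Neither call was firm. That of the PD-L1 sort was lost with DESeq2 size factors (-0.20, adjusted p = 0.0727). That of the HLA sort was lost without HLA low library 1 or 2 or HLA high library 1, and its sign changed with library totals (-0.01, adjusted p = 0.925). SEMA6B also had opposite calls (0.37 and -2.67), with PD-L1 fractions that overlapped.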

How the results depend on the processing

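Asking for at least 2-fold changes as well lowered the counts of members to 21 higher and 8 lower in H69M against H69, 20 and 19 in the PD-L1 sort and 23 and 6 in PD-L1 low cells against H69, and the lower ones to 10 in PD-L1 high cells against H69. All other counts of members stayed within 1.5 times of those reported under the settings run, the 2 added ones for the mouse lines included. With library totals in place of TMM 3 members changed sign, SLIT2 in the PD-L1 sort (-0.01, adjusted p = 0.84) and PLXNB1 (-0.01, adjusted p = 0.925) and PLXND1 (-0.01, adjusted p = 0.932) in the HLA sort, and the cause was not tested. Same-numbered libraries deviated from their group means with correlations of -0.164 to 0.0946, beside -0.087 to 0.152 for libraries of other numbers. No shared deviation of same-numbered libraries was seen, which does not tell whether they were prepared together. With 2 libraries per fraction, the H69EZ correlations mirror each other by construction. With the replicate number as a block 37 members were higher and 20 lower in H69M against H69, 31 and 28 in the PD-L1 sort, 38 and 19 in PD-L1 low cells and 36 and 26 in PD-L1 high cells against H69, and 42 and 19 in the HLA sort. The block lost the calls of PLXNB3 in H69M against H69 (adjusted p = 0.053), PLXNB1 (0.0572) and SLIT2 (0.0538) in the PD-L1 sort, EPHA8 in PD-L1 low cells against H69 (0.053) and PLXNA1 in PD-L1 high cells against H69 (0.0517). No paired analysis was possible in the mouse lines because their columns do not carry the labels' replicate numbers. With RPPM1 and RPPM2 summed, the calls of Ntn3 (0.76, adjusted p = 0.111) and Sema4a (-0.97, adjusted p = 0.0663) were lost. DESeq2 did not call PLXNB1 in the PD-L1 sort (0.0755), UNC5CL (0.0642) and EPHA8 (0.0807) in PD-L1 low cells against H69, EPHA1 (0.0626), ROBO3 (0.0866) and PLXNB3 (0.0614) in the HLA sort or Ntn3 in the mouse lines (0.095). With 1 library left out at a time, 810 of 828 values in the PD-L1 sort, 258 of 271 in the HLA sort and 359 of 372 in the mouse lines kept their sign and their side of the threshold. The 828 include leaving out H69 and unsorted H69M libraries, which are not part of the PD-L1 sort and hardly bear on it. All 16 calls lost there were lost without a PD-L1 high or PD-L1 low library. Members with few counts in a fraction give imprecise folds, and smaller differences there were not detectable at this depth.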
